A study of Mus musculus with 2 samples.

Results

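The 38 genes described here encode proteins of mitosis in ES-E14, a mouse embryonic stem cell line: the mitotic kinases and cyclins, the spindle checkpoint, the kinetochore, the anaphase-promoting complex (APC) and a few spindle and chromosome proteins. They were listed by symbol, with no threshold on measured values, and all 38 were found among the 43346 genes of the gene tables. The series held total RNA-seq of 1 group of 2 libraries, labelled biological replicates 1 and 2, from a male embryonic line of strain 129/Ola with no treatment named in the labels. Both libraries are traced by the labels to 1 source sample, so their spread may be only technical. The sources used here do not give passage, feeder use or cell cycle stage. With 1 group there was no comparison between conditions and no test; each difference between the libraries sets 1 library against 1 library.

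Entry into mitosis is driven by Cdk1 bound to A- and B-type cyclins, with the Polo and Aurora kinases acting beside it. Kinetochores tie chromosomes to spindle microtubules, and the spindle checkpoint holds back Cdc20, the mitotic activator of the APC, until every chromosome is attached. The APC is a ubiquitin ligase that then marks securin and cyclin B for destruction, which frees separase to part the sister chromatids. Many genes of this program share 2 promoter elements, a CCAAT box bound by NF-Y and a cell cycle genes homology region (CHR) bound by complexes built on MuvB. Embryonic stem cells are known for rapid division with short gaps between phases.

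RNA of every one of these 38 genes was found. All were at 1 TPM or more in both libraries, where 46.3% of the 21474 protein-coding genes reached that level. TPM corrects each gene's reads for its length and for library depth; of paired values, replicate 1 comes first. In bulk RNA, fewer cells in mitosis and less RNA per cell cannot be told apart. At 5 TPM or more in both libraries there were 36 members, against 24.4% of protein-coding genes, and at 10 TPM or more there were 24, against 14.3%. The median member level was 15.6 and 16.2 TPM, beside 5.33 and 6.36 TPM for protein-coding genes whose mean reached 1 TPM. Members ran from 4.53 TPM, Cenpe in replicate 1, to 108.3 TPM, Ccnb1 in replicate 1. The labelled cell type was checked first: all 10 embryonic stem cell markers were at 1 TPM or more, led by Dppa5a at 613.4 and 597.0 TPM, Tdgf1 at 318.4 and 198.0 TPM, and Pou5f1 at 162.4 and 201.1 TPM.

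The gene tables held 43163300 and 45573512 expected counts on genes, of which the members took 129295 and 152207. The member with the fewest had 623 in replicate 1 and 727 in replicate 2. The sources used here do not say if the counting used strand. Of the members, 9 share exon bases with another annotated gene, 8 of them on the opposite strand. The longest such stretch was 1271 bases between Cdc23 and Kif20a, itself a mitotic kinesin, followed by 911 bases between Prc1 and Rccd1 and 510 between Ccna2 and Exosc9. Ccnb1 and Top2a had fractional expected counts in a library and so share reads with other gene models; the other 36 members, the 8 with overlaps on the opposite strand included, had whole numbers in both.

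The promoters of 5 members are shown because they carry the 2 elements of the program in different arrangements: Cdk1, Ccnb2, Cdc20 and Top2a hold both, and Anapc5, the APC subunit with the highest RNA level, holds CCAAT boxes alone. The sequences are the RefSeq promoters on GRCm38.p6, 250 bases before to 50 after the annotated start site, printed 5′ to 3′ on the strand of the gene, which is the minus strand for all 5. They are those of the reference strain, not read from the ES-E14 libraries. Capitals mark matches to the CHR (TTTGAA or TTCGAA) and to the CCAAT box (CCAAT) on either strand, so that a match on the other strand reads TTCAAA or ATTGG.
Cdk1, chr10:69352863-69353162: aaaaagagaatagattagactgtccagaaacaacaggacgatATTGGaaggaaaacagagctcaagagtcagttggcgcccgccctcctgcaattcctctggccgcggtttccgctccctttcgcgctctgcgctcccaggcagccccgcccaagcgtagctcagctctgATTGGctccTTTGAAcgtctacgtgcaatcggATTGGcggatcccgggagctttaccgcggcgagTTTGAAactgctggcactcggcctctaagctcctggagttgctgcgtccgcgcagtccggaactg
Ccnb2, chr9:70421505-70421804: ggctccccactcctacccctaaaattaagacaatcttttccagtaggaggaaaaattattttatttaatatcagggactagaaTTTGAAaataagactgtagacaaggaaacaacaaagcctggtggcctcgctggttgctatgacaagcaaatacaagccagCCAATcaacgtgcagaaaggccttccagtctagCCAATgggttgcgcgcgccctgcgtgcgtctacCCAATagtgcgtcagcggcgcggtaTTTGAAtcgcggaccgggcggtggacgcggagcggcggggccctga
Cdc20, chr4:118437294-118437593: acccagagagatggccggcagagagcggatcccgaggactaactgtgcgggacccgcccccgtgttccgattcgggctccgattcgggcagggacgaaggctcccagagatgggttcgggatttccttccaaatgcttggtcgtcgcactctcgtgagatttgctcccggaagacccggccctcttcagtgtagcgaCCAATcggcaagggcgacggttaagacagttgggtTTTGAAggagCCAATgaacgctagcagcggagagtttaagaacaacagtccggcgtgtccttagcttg
Top2a, chr11:99024140-99024439: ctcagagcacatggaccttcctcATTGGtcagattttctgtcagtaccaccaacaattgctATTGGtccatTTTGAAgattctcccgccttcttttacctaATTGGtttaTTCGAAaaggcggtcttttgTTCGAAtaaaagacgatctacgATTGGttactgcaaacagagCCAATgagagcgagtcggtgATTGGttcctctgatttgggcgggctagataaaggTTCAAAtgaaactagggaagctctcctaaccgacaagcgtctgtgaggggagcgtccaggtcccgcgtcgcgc
Anapc5, chr5:122821293-122821592: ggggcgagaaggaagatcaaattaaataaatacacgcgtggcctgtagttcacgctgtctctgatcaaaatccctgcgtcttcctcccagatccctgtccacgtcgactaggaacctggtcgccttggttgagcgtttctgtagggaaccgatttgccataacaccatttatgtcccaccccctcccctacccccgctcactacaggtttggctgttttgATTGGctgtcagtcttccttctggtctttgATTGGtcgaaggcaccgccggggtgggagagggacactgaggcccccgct

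In Cdk1 the CHR nearest the start site began 15 bases before it, with the nearest upstream CCAAT box 33 bases further up. In Cdc20 that distance was 35 bases, in Top2a 35 and in Ccnb2 25, where the CHR began at base 5 after the start. RefSeq promoters were matched for 32 of the 38 members, 35 promoters in all. Of those promoters 19 (54.3%) held a CHR, against 19.2% of all 32851 promoters in the table and 13.5% of promoters of protein-coding genes whose mean reached 1 TPM. A CCAAT box was in 23 (65.7%), against 37.4% and 38.4%. Both were in 18 (51.4%), against 7.52% and 5.82%. In each of those 18 promoters, of 16 genes, a CCAAT box lay upstream of the CHR nearest the start site. The distance between first bases had a median of 34 and a range of 17 to 153. Bub3 and Prc1 entered with 2 overlapping promoters each, which held the same sites. Order and spacing were not computed for other promoters, so neither has a background here, and many of the 18 held more than 1 CCAAT box. The motif searches were chosen with the members in view and are a description; in 1 promoter, that of Cdca8, the 2 motifs overlapped.

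**Figure D1:**
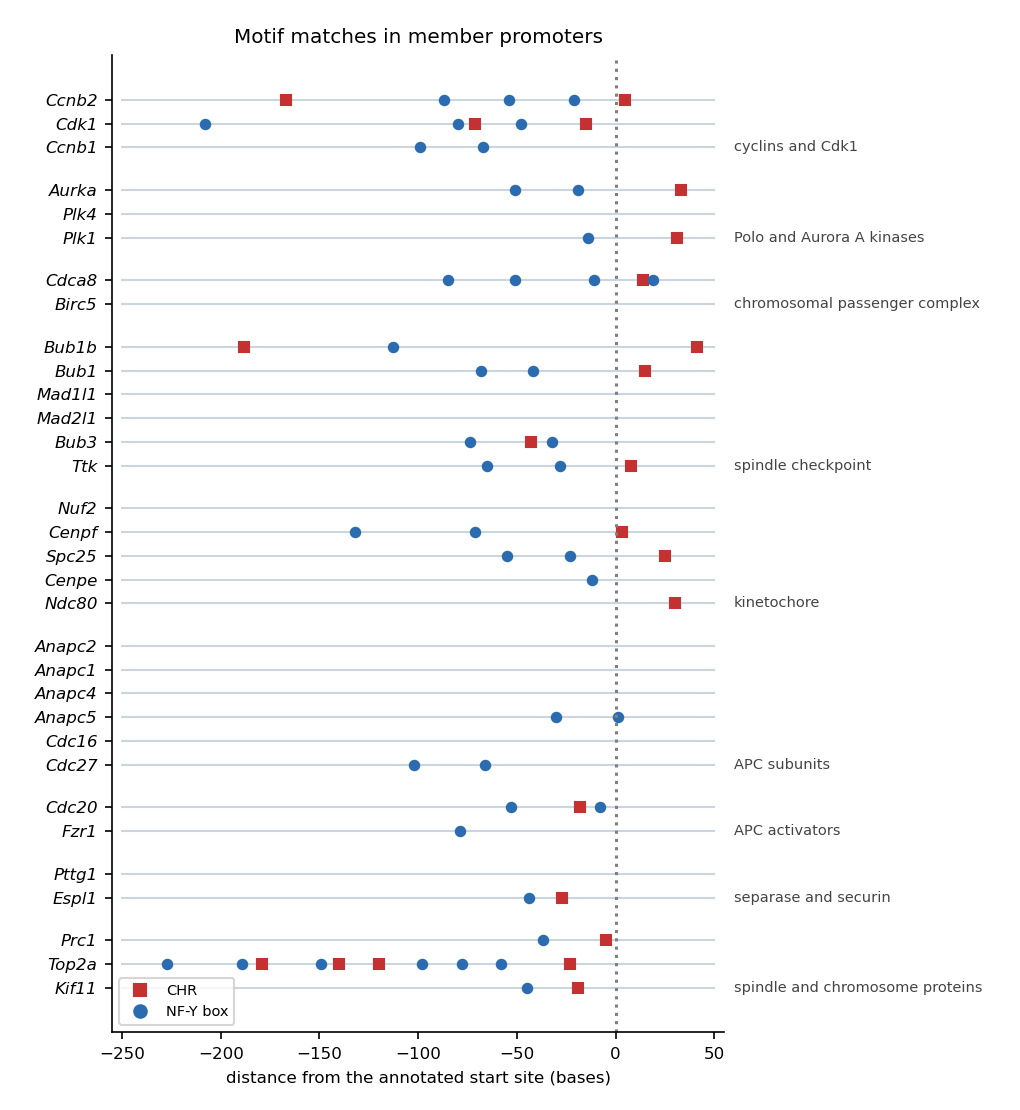
Matches to the CHR (red squares) and the CCAAT box bound by NF-Y (blue circles) in the first listed RefSeq promoter of each of 32 members, by distance in bases from the annotated start site (dotted line). Among the APC subunits 0 of 6 promoters hold a CHR and 2 hold a CCAAT box, while every other role group has at least 1 gene with both.

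Among the APC subunits 0 of 6 matched promoters held a CHR, beside the 13.5% for promoters of expressed protein-coding genes, and 2 (33.3%), of Anapc5 and Cdc27, held a CCAAT box, beside 38.4%; with 6 promoters these counts lie near the background. Among the other members 17 of 26 genes had a CHR and 16 had both elements. Of 8284 expressed protein-coding genes with a matched promoter, 1323 had a CHR and 584 had both. The 7 further APC subunits that are not members gave 2 genes with a CHR and 0 with both. Other further lists, described below, were counted over genes with a matched promoter. Of 24 spindle and cytokinesis genes 18 had a CHR and 13 had both. The counts were 11 and 8 of 24 kinetochore genes, and 4 and 3 of 9 mitotic entry regulators. They were 4 and 2 of 6 APC ubiquitin enzymes and inhibitors, and 3 and 2 of 7 MuvB and FoxM1 regulators. In the list of other paralogs 0 of 4 had a CHR. A CHR was thus not particular to the members. Members without either motif outside the APC were Birc5, Mad1l1, Mad2l1, Nuf2, Plk4 and Pttg1; no match says only that these letters were not in this window.

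Cyclins and Cdk1 held the member with the highest RNA level and, on TPM, the one whose libraries were farthest apart. Ccnb1, cyclin B1, the cyclin that drives entry into mitosis, was at 108.3 and 104.3 TPM, a mean of 106.3 ± 2.84 (SD, n = 2). Cdk1, the kinase it activates, was at 36.7 and 82.1 TPM, a mean of 59.4 ± 32.1 (SD, n = 2). Ccna2, cyclin A2, which acts in S phase and early mitosis, was at 19.5 and 30.7 TPM. Ccnb2, the second B-type cyclin, was at 23.3 and 21.9 TPM. On TPM the libraries thus differed little for both B-type cyclins. On the TMM scale, where the median gene hardly moves, Ccnb2 was as far below (log2 ratio -0.39) as Ccna2 was above (0.40). A second measure, added after seeing the data, summed TPM over transcripts annotated as coding; there the highest of the 4, Ccnb1, was 9.17-fold and 5.30-fold above the lowest, Ccna2, against 5.54-fold and 4.77-fold between highest and lowest over all transcripts.

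Polo and Aurora A kinases ranged from 12.7 TPM (Plk1, replicate 1) to 24.2 TPM (Aurka, replicate 2). Aurka, which matures centrosomes and builds the spindle, was at 19.0 and 24.2 TPM. Plk1, the main Polo kinase of mitosis, was at 12.7 and 16.3 TPM. Plk4, which starts centriole duplication, was at 12.9 and 14.3 TPM. Plk1 and Plk4 overlapped between libraries, and Aurka was above both in each library. Over coding transcripts Plk4 was at 5.34 and 5.37 TPM, with the type of most of its RNA unknown here. In the chromosomal passenger complex, which corrects faulty attachments, Birc5 (survivin) was at 24.1 and 38.5 TPM and Cdca8 (borealin) at 16.1 and 22.3 TPM. Its kinase Aurkb was at 15.6 and 16.2 TPM, and its scaffold Incenp at 15.7 and 15.8 TPM, the lowest mean of the 4 at 15.7 ± 0.0424 (SD, n = 2). Aurkb and Incenp were thus nearly equal over all transcripts, with Birc5 and Cdca8 above them in each library. Over coding transcripts neither held: Aurkb was at 8.18 and 10.9 TPM, and Cdca8, at 14.6 and 20.8 TPM, was below Incenp in replicate 1.

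In the spindle checkpoint the levels spanned 3.87-fold in replicate 1 and 2.98-fold in replicate 2, and 6.27-fold and 4.41-fold over coding transcripts. Bub1b, which encodes BubR1, part of the complex that inhibits Cdc20, was at 23.3 and 26.9 TPM. Bub3, which brings Bub1 and BubR1 to kinetochores, was at 20.6 and 27.7 TPM. Mad2l1, the Mad2 protein that binds Cdc20, was at 15.2 and 22.6 TPM. These 3 were above the other 3 in both libraries. Bub1, a kinetochore kinase, was at 9.41 and 14.9 TPM, and Mad1l1, the kinetochore anchor of Mad2, at 8.82 and 10.8 TPM. Ttk, the Mps1 kinase that starts checkpoint signalling, was lowest at 6.01 and 9.29 TPM, a mean of 7.65 ± 2.32 (SD, n = 2).

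Kinetochore genes had the lowest median of the 9 role groups in both libraries, 6.78 and 9.19 TPM. Spc24, of the microtubule-binding Ndc80 complex, was highest at 17.0 and 18.9 TPM, a mean of 17.9 ± 1.32 (SD, n = 2). Its partner Spc25 was at 8.42 and 15.1 TPM, and the other 2 subunits, Ndc80 and Nuf2, at 4.95 and 8.53 TPM and at 5.13 and 7.66 TPM. The 4 subunits of this complex therefore did not stand at equal RNA levels: Spc24 was above Ndc80 and Nuf2 in each library with no overlap. Cenpf, a large protein of the outer kinetochore, was at 12.4 and 9.84 TPM, one of 5 members lower in replicate 2. Cenpe, a kinesin that moves chromosomes to the spindle equator, was the lowest member of all at 4.53 and 5.94 TPM, a mean of 5.24 ± 0.997 (SD, n = 2).

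APC subunits spanned 7.49-fold and 7.77-fold, and 34.3-fold and 17.1-fold over coding transcripts, where Anapc4 was lowest. Anapc5, a scaffold subunit, was at 41.9 and 46.5 TPM, a mean of 44.2 ± 3.27 (SD, n = 2). Anapc1, the largest scaffold subunit, was at 19.7 and 21.4 TPM, and Cdc23, of the arm that binds activators, at 17.6 and 21.5 TPM. Anapc5 was above the other 6 subunits in both libraries, although these proteins work in 1 complex. Anapc4 was at 8.27 and 15.8 TPM, Cdc16 at 9.30 and 14.5 TPM and Cdc27 at 5.59 and 11.1 TPM. Anapc2, the cullin of the catalytic core, was at 5.94 and 5.98 TPM, the lowest by mean and in replicate 2, while Cdc27 was lowest in replicate 1. Of the activators, Cdc20 was at 61.1 and 66.4 TPM, and Fzr1 (Cdh1), which takes over at mitotic exit and in G1, at 18.1 and 14.4 TPM. Cdc20 was 3.37-fold and 4.59-fold above Fzr1, and 6.90-fold and 8.43-fold above it over coding transcripts, so the 2 activators did not overlap on either measure.

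Securin, Pttg1, was at 17.6 and 16.2 TPM, and Espl1, the separase it holds inactive, at 8.98 and 10.3 TPM. Top2a, the topoisomerase that untangles and condenses chromosomes, was at 73.9 and 83.3 TPM, a mean of 78.6 ± 6.70 (SD, n = 2). Prc1, which bundles microtubules of the central spindle, was at 19.65 and 20.99 TPM, Tpx2, an activator of Aurora A, at 12.2 and 18.0 TPM, and Kif11, the kinesin that separates spindle poles, at 8.82 and 13.2 TPM. Top2a was above the other 3 in both libraries. Ordered by mean TPM, 3 of the 37 pairs of neighbours did not overlap between the libraries: Ccnb1 above Top2a, Top2a above Cdc20, and Anapc5 above Birc5. All other neighbours overlapped, so this rule did not resolve the order between them. It sets aside order within a library: Birc5 was above Ccna2 in each library, while Cdc20 and Cdk1 changed order. The highest means belonged to Ccnb1, Top2a, Cdc20 and Cdk1, and the lowest to Cenpe, Anapc2, Nuf2 and Ndc80.

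**Figure D2:**
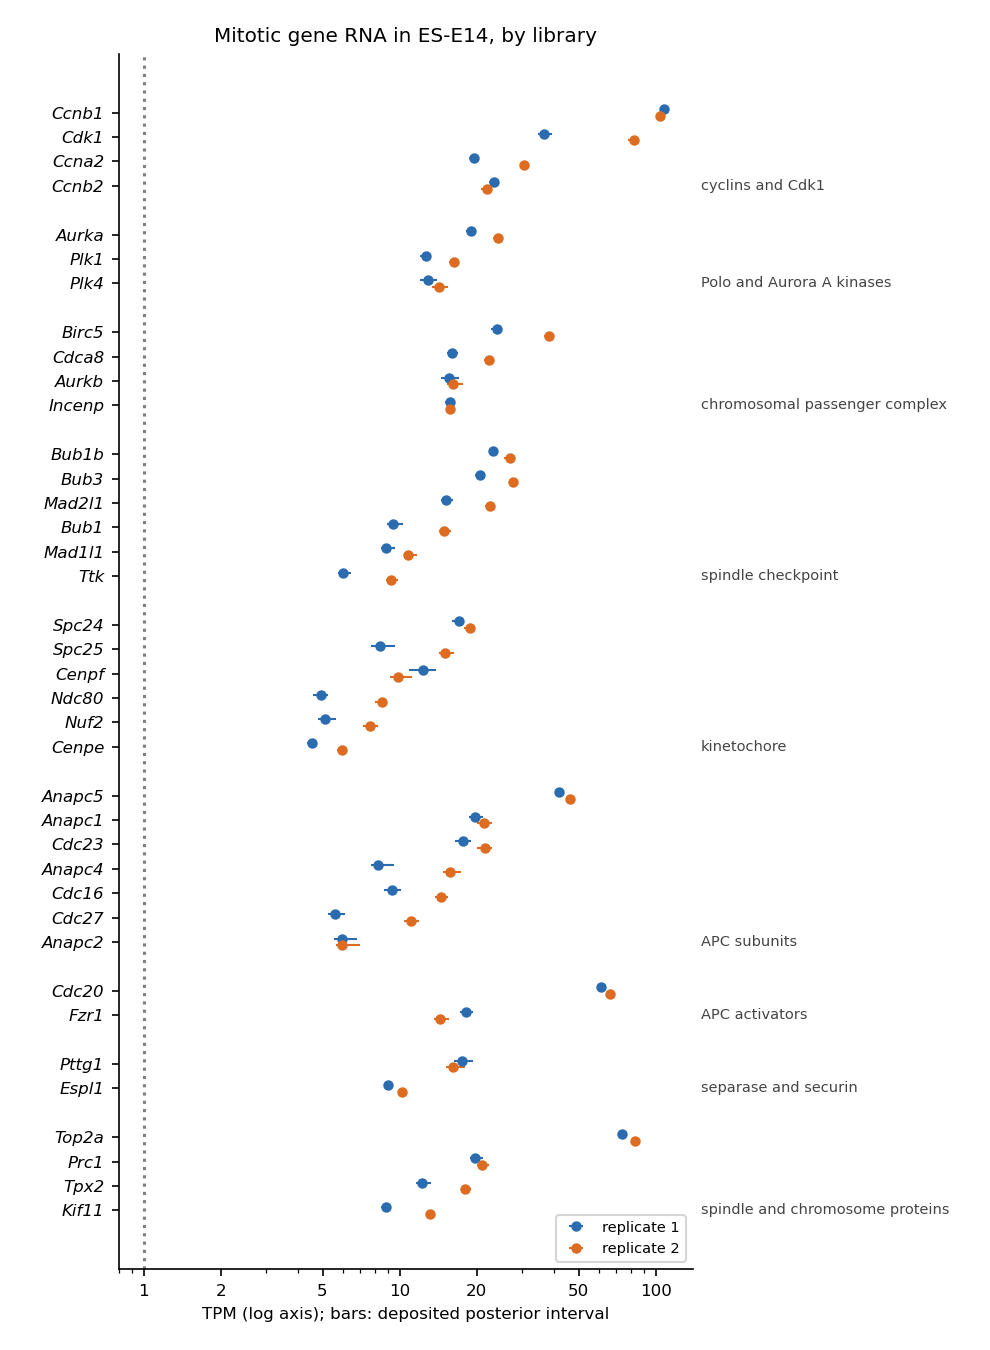
TPM of each of the 38 members in replicate 1 (blue) and replicate 2 (orange) on a log axis, by role group, with the authors' deposited posterior interval of each library as bars; the dotted line is 1 TPM. All members lie above 4 TPM, and the gap between libraries is widest for Cdk1, at 36.7 and 82.1 TPM.

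Replicate 2 was higher for 33 members and lower for 5, but the direction depended on the scale. On TPM 71.7% of protein-coding genes whose mean reached 1 TPM were higher in replicate 2, with a median log2 ratio of 0.29 over 10480 genes. The member median was 0.32, with quartiles of 0.12 and 0.62, against -0.05 and 0.59 for protein-coding genes, so the members as a list lay near the background. Relative to the protein-coding median 21 members were above and 17 below. With expected counts scaled by TMM, 22 members were higher, against 51.8% of protein-coding genes, whose median was then 0.02. With TPM rescaled to protein-coding genes 19 were higher, against 49.6%. On all 4 scales, DESeq2 size factors included, 19 members were higher, against 47.4% of protein-coding genes, 5 were lower, against 27.8%, and 14 changed direction with the scale.

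The 5 members lower in replicate 2 on each scale were Cenpf, Fzr1, Pttg1, Ccnb2 and Ccnb1, with log2 TPM ratios of -0.33, -0.33, -0.12, -0.09 and -0.05. The 19 of 38 that were higher on each scale lay near the 47.4% of protein-coding genes. With few genes per group, their split over 7 of the 9 role groups is only a description. They were 4 of 6 checkpoint genes, 4 of 6 kinetochore genes, 3 of 7 APC subunits, 2 of 3 Polo and Aurora A kinases, and 2 of 4 in each of the cyclin, passenger and spindle groups. The 3 APC subunits were Cdc27, Anapc4 and Cdc16, with log2 TPM ratios of 0.99, 0.93 and 0.64. The APC activators and the separase and securin pair gave 0. The authors' posterior intervals of the 2 libraries did not overlap for 28 of 38 members, against 64.0% of protein-coding genes; those intervals cover quantification within a library and not the spread between cultures.

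**Figure D3:**
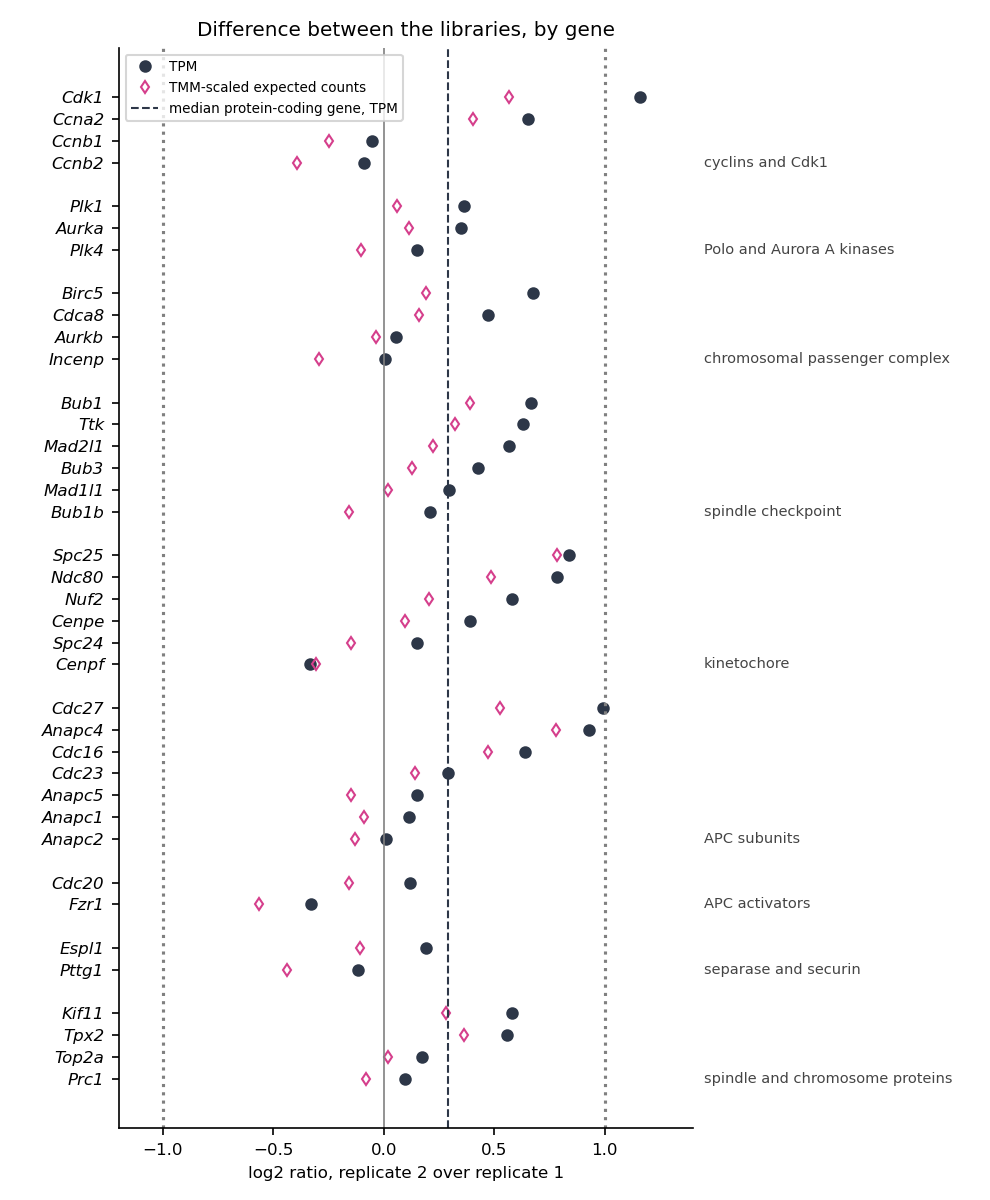
Log2 ratio of replicate 2 over replicate 1 for each member, from TPM (dark circles) and from TMM-scaled expected counts (open diamonds), by role group; the dashed line is the median protein-coding gene on TPM, 0.29, and dotted lines mark 2-fold. Cdk1 passes 2-fold on TPM, at 1.16, and does not on the TMM scale, at 0.57.

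By the 2-fold limit 1 member, Cdk1, was higher in replicate 2 and 0 were lower, against 6.44% and 1.43% of protein-coding genes and 7.46% and 1.83% of all 11436 genes whose mean reached 1 TPM. Cdk1 had 2629 and 4564 expected counts, a 1.74-fold difference not scaled for depth, against 2.23-fold in TPM. The difference was 1.82-fold on rescaled TPM and 1.48-fold on the TMM scale. Part of the TPM value is thus the general shift, a median log2 ratio of 0.29 for protein-coding genes. The TPM difference lay partly in short transcript models: the retained-intron transcript Cdk1-204, 475 bases long, took 26.6% and 38.8% of the gene's TPM, and the coding transcript Cdk1-202 took 53.4% and 44.0%. A retained-intron model keeps an intron and is not annotated as coding. Over coding transcripts alone Cdk1 was at 21.99 and 39.20 TPM, a 1.78-fold difference, where the median log2 ratio of protein-coding genes was 0.35. On that measure 2 other members passed 2-fold instead, against 8.26% of protein-coding genes: Spc25 at 5.18 and 12.4 TPM and Anapc4 at 1.22 and 2.72 TPM.

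Markers of other cells differed between the libraries as well. The 15 feeder fibroblast markers summed to 293.2 TPM in replicate 1 and 593.9 TPM in replicate 2, and 12 of 15 were higher in replicate 2, each at least 2-fold; 8 of these had a mean of at least 1 TPM. The highest were Vim at 88.9 and 301.9 TPM, Fn1 at 154.1 and 122.2 TPM, and Acta2 at 33.0 and 100.2 TPM. Together they made up most of each sum. The median of the 15 was 0.95 and 2.15 TPM, and 4 were under 1 TPM in both libraries. Lum was at 0 in both. Col1a1, a defining fibroblast gene, was at 7.21 and 28.8 TPM. The highest B cell markers were Igkc at 0.39 and 5.37 TPM, Ighm at 0.26 and 5.27 TPM and Cd79b at 0.81 and 0.83 TPM. The embryonic stem cell markers summed to 1359 and 1293 TPM. Their part in the member differences was not tested. The median GC content of the leading transcript was 48.1% for 37 members and 50.9% for protein-coding genes. With each member set against protein-coding genes in its own GC decile, 21 of the 37 were above the median and the median difference was 0.06.

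The transcript tables gave 28 members with more than 1 transcript, and these differed in how much of their RNA was assigned to coding models. The same transcript led in both libraries for 26 of them, against 86.0% of 7431 protein-coding genes with more than 1 transcript and 1 TPM or more. The leading transcript was annotated protein_coding in both libraries for 24, against 86.5%. The median share of TPM from coding transcripts was 76.3% and 83.6%, beside 81.7% and 85.5% for those protein-coding genes. It was higher in replicate 2 for 21 of 28 members, against 56.0%.

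Ccna2, Plk4 and Anapc4, 3 of the 28, were under 50% coding in both libraries, near the 11.6% of protein-coding genes. Plk4 is among them only because transcripts of unknown type were not counted as coding. In Ccna2 the leading model was Ccna2-203, annotated as a target of nonsense-mediated decay, with 47.7% and 53.2%, above the coding Ccna2-201 with 37.4% and 38.6%. Both libraries gave the same order. In Anapc4 the retained-intron model Anapc4-204 led replicate 1 with 39.1% and 33.9%, and Anapc4-207, annotated for nonsense-mediated decay, led replicate 2 with 29.3% and 34.5%. In replicate 2 the 2 models were nearly level. By the posterior mean Anapc4-204 led both libraries, in replicate 2 with 33.13% against 33.07%, so a change of leading model was not resolved. The coding Anapc4-201 held 14.8% and 17.3%, so the coding level of this APC subunit was the lowest of the 38. In Plk4 58.6% and 62.4% of TPM lay in transcripts that the later annotation used for names does not hold, so their type is unknown here. In Cdc23 the retained-intron model Cdc23-206 led with 37.6% and 29.8%.

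Prc1 was the other member whose leading transcript differed, between 2 coding models: Prc1-206 held 20.3% and 15.2%, and Prc1-202 held 17.9% and 22.4%. Its coding share as a whole was 79.6% and 86.1%. For Top2a 49.0% and 41.6% of TPM lay in short processed transcripts, led by Top2a-207, 803 bases long, with 31.5% and 19.2%. Counted over coding transcripts, Top2a was therefore at 37.7 and 48.7 TPM, below Cdc20 at 54.9 and 61.1 TPM, and Ccnb1 was at 67.0 and 62.8 TPM. Top2a and Anapc5, at 41.9 and 46.5 TPM with a single coding model, then overlapped. All 38 members were at 1 TPM or more in both libraries on this measure too.

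**Figure D4:**
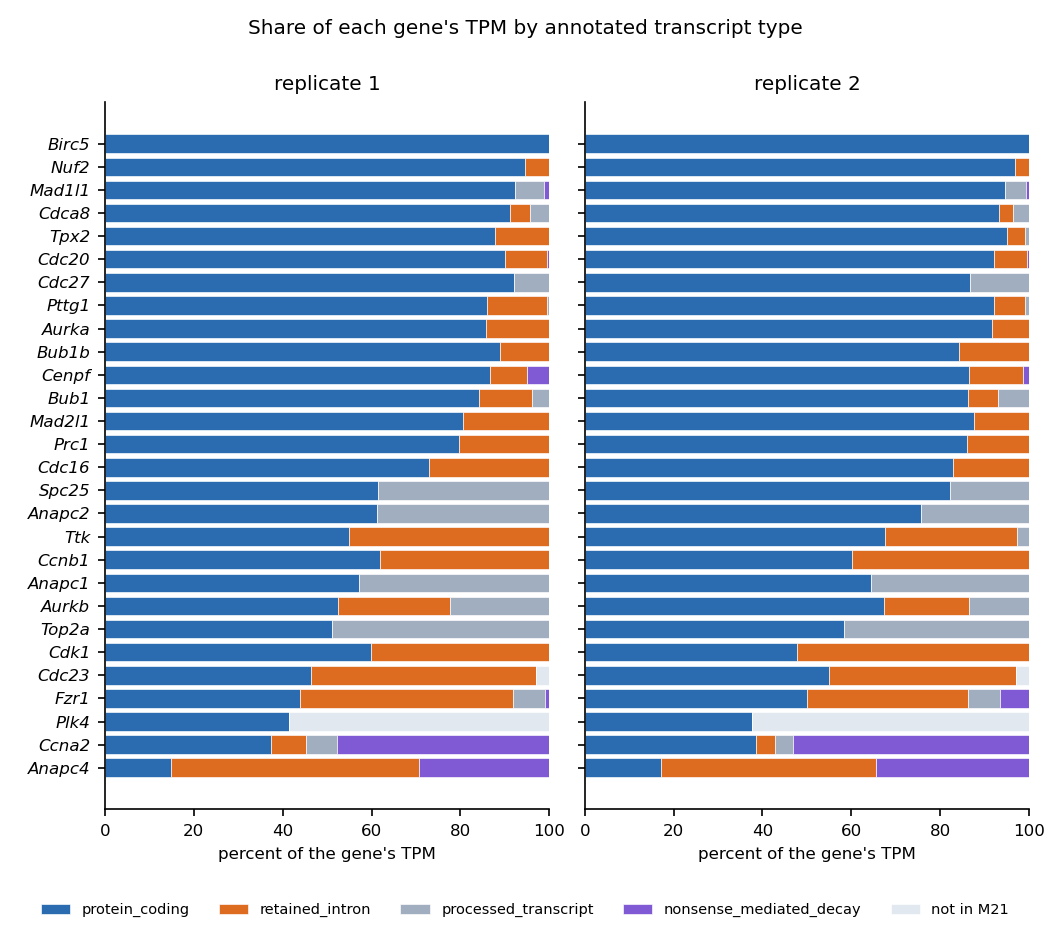
Share of each gene's TPM by annotated transcript type in replicate 1 and replicate 2, for the 28 members with more than 1 transcript, ordered by coding share. Anapc4 holds 14.8% and 17.3% in coding transcripts, and Ccna2 47.7% and 53.2% in a model annotated for nonsense-mediated decay.

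Of 95 further genes in 7 lists, 89 were at 1 TPM or more in both libraries, against 46.3% of protein-coding genes. Of the 5 under 1 TPM in both, 4 were in a list of other paralogs, known from germ cells or brain. The list medians ran from 4.59 TPM for the MuvB and FoxM1 regulators to 11.7 TPM for the other APC subunits. Further spindle and cytokinesis proteins had a median of 11.4 TPM, and the 5 genes listed as other paralogs were left aside. Ube2s, the enzyme that lengthens ubiquitin chains for the APC, was at 114.2 and 147.2 TPM, above every member in both libraries. Ube2c, which starts those chains, was at 22.5 and 36.8 TPM, and Fbxo5 (Emi1), an APC inhibitor, at 12.7 and 15.3 TPM. Fbxo43 (Emi2), the inhibitor known from egg cells, was under the limit at 0.05 and 0.02 TPM. Further APC subunits were led by Anapc15 at 20.3 and 28.8 TPM, Anapc13 at 16.3 and 25.3 TPM and Anapc11 at 16.8 and 23.1 TPM, all below Anapc5. Over coding transcripts Anapc15, at 8.23 and 13.8 TPM, was below Anapc13 at 15.9 and 25.1 TPM.

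Among mitotic entry regulators the highest were Cks1b at 31.2 and 43.9 TPM, Ccnf at 39.9 and 31.2 TPM and Cks2 at 23.3 and 43.2 TPM; the Cks proteins bind Cdk1. Further kinetochore genes were led by Zwint at 21.03 and 40.60 TPM, Zwilch at 29.5 and 23.2 TPM and Cenpa, the centromeric histone, at 23.9 and 20.6 TPM. Over coding transcripts Zwilch was at 9.67 and 10.5 TPM and Cenpa at 5.29 and 6.77 TPM. Both were then below Pmf1 at 10.9 and 17.7 TPM and Cenpt at 16.0 and 12.9 TPM. Spindle and cytokinesis genes were led by Kifc1, Tacc3 and Racgap1, at 36.4 and 34.9, 23.2 and 30.9, and 21.3 and 31.1 TPM. Over coding transcripts Kifc1, at 20.6 and 23.1 TPM, was below Tacc3 at 22.6 and 30.4 TPM. Over all transcripts no gene of these 3 lists reached the level of Ccnb1, Top2a or Cdc20 in either library. Over coding transcripts Ccnf, at 39.9 TPM, was above Top2a, at 37.7 TPM, in replicate 1. Of the regulators, Mybl2 (B-Myb), which joins MuvB to activate mitotic genes, was at 78.1 and 72.0 TPM, Rbbp4 at 11.5 and 20.9 TPM and E2f4 at 11.7 and 14.9 TPM. Over coding transcripts Mybl2 was at 37.3 and 37.6 TPM. Of 5 genes listed as other paralogs, Aurkc, Ccna1, Mos and Ccnb3, known from germ cells, were under 1 TPM in both libraries. That label does not hold for Mos, which is not a paralog of a member. Plk5, known mainly from brain, was above that limit at 3.37 and 1.39 TPM. Aurkc, at 0.53 and 0.76 TPM, is a close relative of Aurkb, and Ccna1, at 0.17 and 0.08 TPM, of Ccna2. Among those of the 95 genes whose mean reached 1 TPM, 3 were at least 2-fold higher in replicate 2 (Cdc26, Cenpk and Ska2) and 1 lower (Plk5), beside the 6.44% and 1.43% of protein-coding genes.

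**Figure D5:**
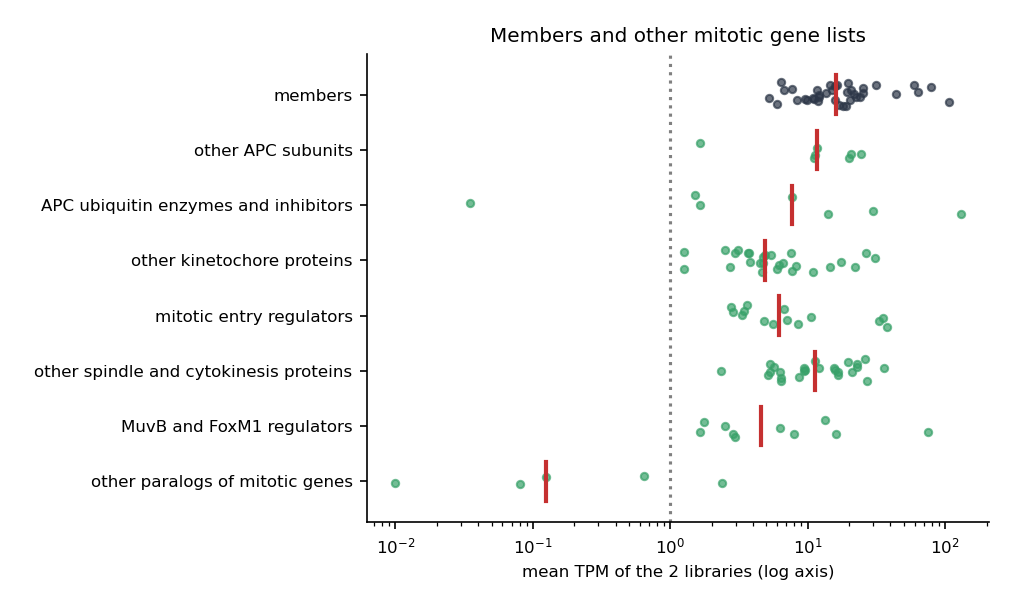
Mean TPM of the 2 libraries on a log axis for each of the 38 members and for 95 further genes in 7 lists; red bars are list medians and the dotted line is 1 TPM. The member median is 16.1 TPM, above that of every other list. Of the 5 genes labelled other paralogs, a label that does not hold for Mos, 4 lie under 1 TPM.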

How the data were processed

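Per the labels, total RNA of ES-E14 cells was sequenced as 2 libraries; mm10 and annotation M4 are named in the deposited text file. The sources used here do not name the aligner or the quantifier. Per the file headers, the authors' tables hold for each gene and transcript an expected count, TPM, FPKM, effective length, the posterior mean TPM and its interval bounds (used as the authors' signal values; the level of the interval is not given), and the deposited percent of a gene's output by transcript. Depth was 43163300 and 45573512 expected counts on genes.

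From these were computed each member's TPM with SD over 2 libraries, counts at 1 TPM or more, log2 ratios without pseudocount among genes whose mean reached 1 TPM, the 2-fold limit and shares by transcript type. Expected counts were rounded for TMM (edgeR 4.0.16) and DESeq2 1.42.0 size factors in R 4.3.3; no count test was run, since 1 library stood on each side. Rescaled TPM is TPM over the sum of protein-coding genes without mitochondrial genes. GENCODE M21 (GRCm38, the assembly of mm10) gave names, types and coordinates, and matched 42462 of 43346 genes; promoters came from RefSeq on GRCm38.p6. Python 3.11.15, numpy 2.4.6, pandas 2.3.3 and matplotlib 3.10.9 were used. The 2-fold rule was tried on simulated counts with known changes. That simulation held no spread between libraries beyond counting and no shift in TPM, so it does not test the 2-fold counts given here.

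The members and all lists were chosen with earlier results of these data known; the B cell list is not reported here in full. The rule for named genes gave every member with its role group, the 3 highest of each further list and those under 1 TPM. It also gave the 3 highest and lowest ratios and members whose leading transcript differed. Further members and promoters described were chosen after their values were seen, as were Col1a1, Cdc26, Cenpk, Ska2, Pmf1 and Cenpt. Alternatives were other TPM limits, posterior mean TPM, FPKM, rescaled TPM, the lower interval bound, TMM and DESeq2 scaling, a pseudocount of 1, count filters, means, GC content, each library alone and, added after seeing the data, coding transcripts alone.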

Additional observations from a re-analysis of the deposited data

How the results depend on the processing

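All 38 members stayed at 1 TPM or more in both libraries with a limit of 0.5 TPM, posterior mean TPM, FPKM, rescaled TPM, the lower interval bound, coding transcripts alone and each library alone; 36 passed 5 TPM and 24 passed 10 TPM. The 1 member 2-fold higher in replicate 2 became 0 with TMM, DESeq2 or rescaled TPM and 2 with coding transcripts alone. The number 2-fold lower was 0 in each setting run. The median log2 ratio, 0.32 on TPM, was 0.078 with TMM, 0.081 with DESeq2, 0.028 with rescaled TPM, 0.32 with posterior means, 0.30 with a pseudocount of 1, 0.35 as a mean, 0.058 against genes of like GC content and 0.40 with coding transcripts alone, beside 0.35 for protein-coding genes. Of the 9 role groups ranked by median TPM, 5 to 7 kept their rank with 1 library left out, 6 with means and 3 with coding transcripts alone, where the APC activators (32.8 TPM) stood above cyclins and Cdk1 (26.6 TPM). With 10 TPM or more in both libraries the same transcript led for 17 of 18 members, and for 27 of 28 with posterior means, where Anapc4 no longer differed. No paired analysis was possible because there is 1 group. With 2 libraries of 1 source sample the SD is a rough guide, and depth did not limit detection of any member at 1 TPM.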
